A study of Mus musculus with 6 samples.

Results

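The keratins are the intermediate filament proteins of epithelial cells, and their genes were followed in RNA from the developing mouse palate of control and Shox2-deficient embryos. Members were all genes whose symbol is Krt followed by a number and at most 1 letter, which gave 52 of the 23420 genes in the deposited count files. By textbook use they were divided into 3 basal, 6 simple, 17 suprabasal and 24 hair keratins, and 2 members, Krt42 and Krt222, were placed in none of these. The tissue was the part of the palate that becomes the anterior hard palate, taken at E14.5 (days of gestation) from C57BL/6 mice, with 3 libraries for each genotype. Controls were Shox2Cre/+;Nkx2.5F/F, with a Cre gene in 1 Shox2 allele and a wild-type Shox2 allele. Mutants were Shox2Cre/-;Nkx2.5F/F, with the same Cre allele and a Shox2 null allele. Cre is made from the Shox2 locus, so in both genotypes the floxed Nkx2-5 alleles can be deleted wherever Shox2 is active, and the libraries titled WT were not wild type. Whether embryos were pooled for a library is not stated, and p-values therefore measure the spread between libraries, which may be technical.

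Keratin filaments are built from pairs of an acidic type I and a basic type II keratin, and each kind of epithelium uses its own pair. Krt5 and Krt14 are the pair of the basal layer of stratified epithelium, Krt8 and Krt18 that of simple, single-layered epithelium. When cells leave the basal layer they switch to a suprabasal pair, Krt4 and Krt13 in the moist lining of mouth and oesophagus and Krt1 and Krt10 in cornifying skin. Hair keratins are typical of the hair shaft and its inner root sheath, and related ones of nail and tongue papillae. In mice type I genes lie together on chromosome 11 and type II genes on chromosome 15, with the type I gene Krt18 at the end of the type II cluster.

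Total counts were 81950407 to 134813429 in the controls and 52668242 to 53331397 in the mutants, so every control was deeper than every mutant. Shox2 itself was at 88.2, 68.2 and 81.7 CPM (counts scaled to library size and by TMM, the trimmed mean of M values, as all levels below) in control replicates 1, 2 and 3 and at 5.3, 4.12 and 3.13 CPM in the mutants. Replicate 1 of each genotype stood apart from its group, with correlations across genes of 0.981 (controls) and 0.975 (mutants) with the other 2 libraries, against 0.992 and 0.988 between those 2. Levels of Y-linked genes also differed, with a mean log2 level of 3.25 to 5.49 in the controls and 5.61 to 5.85 in the mutants. A fit with that level as a covariate was run as an alternative and is given where it ended the call of a named gene among those followed under the alternatives.

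Keratin transcripts made up 0.171%, 0.111% and 0.187% of all counts in control replicates 1, 2 and 3 and 0.691%, 0.824% and 1% in mutant replicates 1, 2 and 3. The summed keratin level was 1740, 1150 and 1900 CPM in the controls and 6700, 8030 and 9920 CPM in the mutants. Every mutant library thus lay above every control, with a difference of 5.19-fold between the mean log2 levels (exact two-sided permutation p = 0.1, the smallest that 3 against 3 libraries can give). In bulk tissue, more epithelial cells and more keratin RNA per epithelial cell cannot be told apart. The summed level was 4.46-fold higher for basal and 4.08-fold higher for simple keratins, and 7.01-fold higher for suprabasal and 7.94-fold higher for hair keratins (exact p = 0.1 for each). Krt17 and Krt75 carried much of the control level in these last 2 groups: suprabasal keratins without Krt17 were 22-fold higher, and hair keratins without Krt75 were 3.04-fold higher.

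Of the 52 keratins, 36 had enough counts to be tested, and 16 did not. edgeR's quasi-likelihood test over all genes called 25 of the 36 higher in the mutant and 1 lower at an adjusted p under 0.05, and 10 were not called. All 25 were over 2-fold higher. Calls were common in these data: of 16604 genes tested, 45.8% were called, 24.1% higher and 21.7% lower, and 13.9% were called higher by over 2-fold. A keratin seen only in the mutant passes the filter on low counts because it is high there, and 11 of the 36 passed through the mutants alone and 1 through the controls alone. Of the 23 keratins that passed in both groups, 18 were called higher and none lower (0 also at an unadjusted p under 0.05, and by DESeq2 and limma-voom), with a median log2 fold change of 2.45. Over all genes that passed in both groups, 22.8% were called higher and 23% lower, with a median of -0.02. The groups did not overlap, with all mutants higher, for 27 of the 36 keratins (29.7% of all tested genes) and with all mutants lower for 1 (29.2% of all tested genes).

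**Figure D1:**
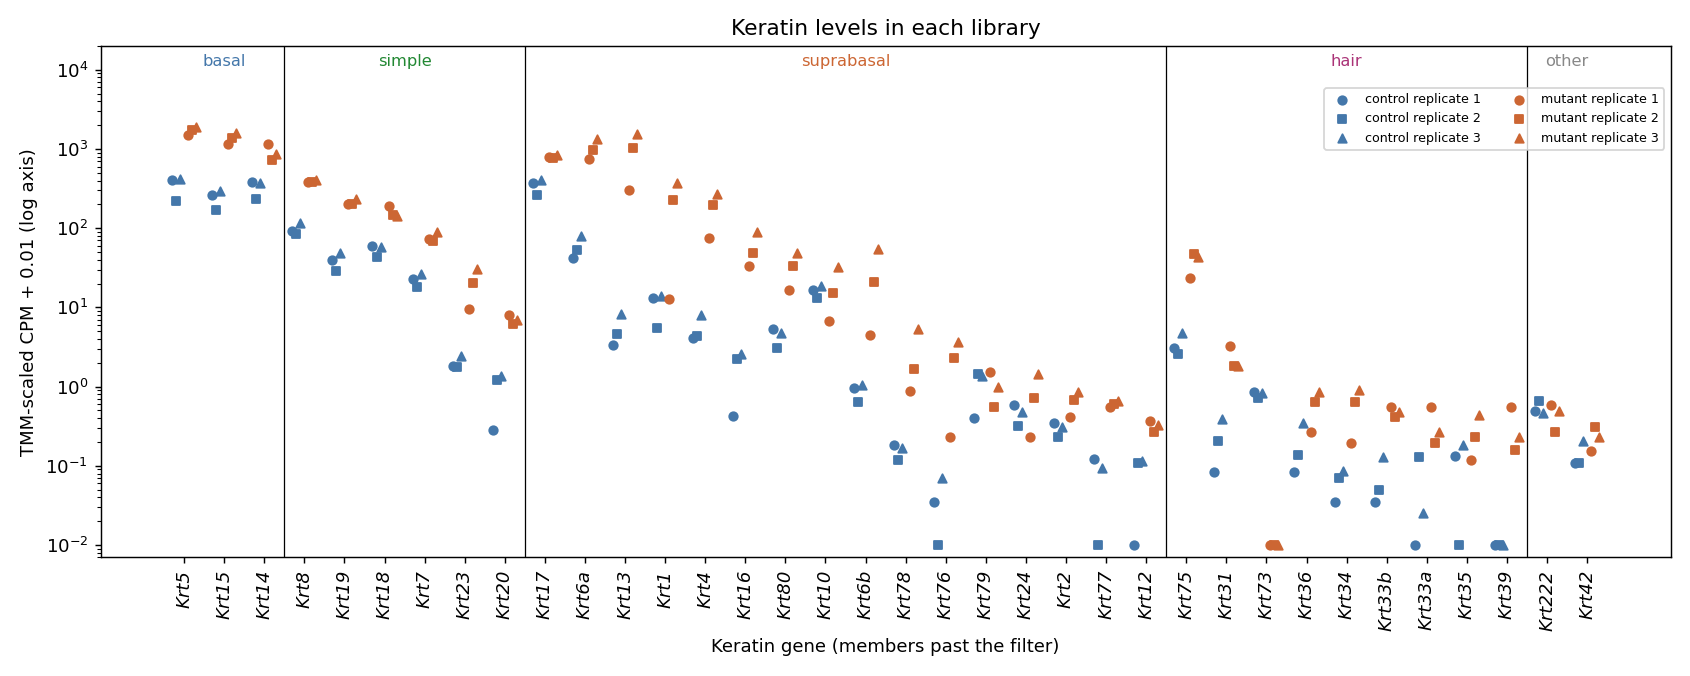
Level of each of the 36 tested keratins in each of the 6 libraries, as TMM-scaled CPM plus 0.01 on a log axis, ordered by keratin group and by level (blue, control; orange, mutant; symbols, replicates). Basal and simple keratins are higher in all mutants, and among suprabasal keratins mutant replicate 1 is the lowest mutant for 13 of 16.

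The 3 basal keratins all rose. Krt5, the type II keratin of basal cells, was at 405, 218 and 422 CPM in control replicates 1, 2 and 3 and at 1510, 1730 and 1910 CPM in the mutants. All mutants were well above the controls. The log2 fold change was 2.3, SE 0.25, at an adjusted p of 0.000603 in edgeR. Krt15, a type I keratin of basal and progenitor cells, rose from 265, 168 and 297 to 1150, 1360 and 1580 CPM (log2 fold change 2.49, SE 0.23, edgeR adjusted p = 0.000371). Krt14, the usual partner of Krt5, rose less, from 384, 236 and 376 to 1140, 734 and 870 CPM (log2 fold change 1.46, SE 0.23, edgeR adjusted p = 0.00226). Control replicate 2 was the lowest control for all 3 genes. Among the mutants Krt14 was highest in replicate 1, while Krt5 and Krt15 were lowest there. Krt5 lies on chromosome 15 from 101707070 to 101712898 and Krt14 on chromosome 11 from 100203162 to 100207548, both on the minus strand (GENCODE M21, GRCm38).

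All 6 simple keratins rose as well. Krt8 was at 92.5, 83.8 and 116 CPM in the controls and at 388, 386 and 410 CPM in the mutants, with the smallest SE of the tested keratins (log2 fold change 2.02, SE 0.12, edgeR adjusted p = 0.000189). Krt18, its type I partner, rose from 60, 43.3 and 57.6 to 191, 145 and 144 CPM (1.58, SE 0.16). Krt19, a short type I keratin of simple and some basal cells, rose from 39.6, 29.2 and 49.1 to 205, 204 and 236 CPM (2.45, SE 0.18). Krt7, a type II keratin of ducts and glands, rose from 23.1, 18.2 and 26.7 to 73.1, 69.4 and 88.8 CPM (1.76, SE 0.16). For these genes the mutant libraries were close to one another and clear of the controls. The other simple keratins were lower in level. Krt23, a type I keratin, rose from 1.82, 1.78 and 2.44 to 9.48, 20.4 and 30.7 CPM (3.32, SE 0.42), and Krt20, known from intestinal epithelium, umbrella cells of the bladder and Merkel cells, from 0.272, 1.19 and 1.35 to 8.07, 6.25 and 6.96 CPM (2.9, SE 0.52). Adjusted p from edgeR for the 6 genes was at most 0.00403.

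Suprabasal keratins held the largest rises among keratins counted in both genotypes. Of 17 members 16 were tested, 11 rose, none fell and 5 were not called, where 24.1% of all tested genes were called higher and 21.7% lower. Of the 12 that passed the filter in both groups 8 rose, against 22.8% of all genes that passed in both. The other 4 tested, Krt12, Krt76, Krt77 and Krt78, passed through the mutants only, so their direction was largely set by the filter. Krt13, the type I keratin of the suprabasal layers of oral and oesophageal lining, was at 3.33, 4.6 and 8.18 CPM in the controls and at 301, 1030 and 1540 CPM in the mutants (log2 fold change 7.47, SE 0.74, edgeR adjusted p = 0.000447). Krt4, its type II partner, rose from 4.08, 4.39 and 7.97 to 75.5, 196 and 269 CPM (5.03, SE 0.53, edgeR adjusted p = 0.000537). Both genes had the same order of libraries within each genotype, with replicate 1 lowest and replicate 3 highest. Krt76, a type II keratin of the hard palate and gum, had 2, 0 and 8 counts in the controls and 12, 125 and 198 in the mutants (6.01, SE 1.23, edgeR adjusted p = 0.00674). That call and those of Krt6b and Krt78 were lost with the Y-linked covariate (adjusted p of 0.147, 0.052 and 0.0527). Krt78 rose from 0.173, 0.109 and 0.158 to 0.872, 1.66 and 5.38 CPM (4.16, SE 0.74), and Krt80, a keratin of many epithelia, from 5.31, 3.09 and 4.69 to 16.6, 33.1 and 48.5 CPM (2.91, SE 0.4). Krt13 lies on chromosome 11 from 100117327 to 100121566, Krt4 on chromosome 15 from 101918535 to 101924735 and Krt76 on chromosome 15 from 101884351 to 101892920, all on the minus strand.

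Keratins that injured or fast-growing epithelium makes rose with them. Krt6a, a type II keratin of palate, tongue and wound edge, was at 41.8, 52.6 and 79.5 CPM in the controls and at 737, 959 and 1340 CPM in the mutants (log2 fold change 4.12, SE 0.32, edgeR adjusted p = 0.000243). Krt6b, its close copy, rose from 0.965, 0.624 and 1.04 to 4.43, 20.8 and 54.4 CPM (4.91, SE 0.87). Krt16, a type I partner of the Krt6 proteins, rose from 0.421, 2.25 and 2.58 to 33.2, 48.8 and 89.2 CPM (5, SE 0.67). Krt17, the other partner, was already abundant in the controls and rose from 372, 259 and 410 to 798, 776 and 831 CPM (1.21, SE 0.16, edgeR adjusted p = 0.00132). Sequence is shared between some of these genes: 57.2% of the 50-base windows in the Krt6a transcripts, 50.1% for Krt6b and 37.6% for Krt16 also occur in transcripts of another gene. For Krt6a these were chiefly Krt6b and the antisense gene Gm49428, for Krt6b chiefly Krt6a, and for Krt16 chiefly Gm11597 and Krt14. The sources do not state how such reads were divided, and the split of counts between Krt6a and Krt6b is uncertain.

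In the pair of cornifying skin, Krt1 was called and Krt10 was not. Krt1 was at 13, 5.44 and 13.8 CPM in the controls and at 12.7, 226 and 367 CPM in mutant replicates 1, 2 and 3. Mutant replicate 1 was within the range of the controls, so the call for Krt1 rests on the other 2 mutants (log2 fold change 4.23, SE 1.06, edgeR adjusted p = 0.015), and it was lost without control replicate 2 (adjusted p = 0.0501), with limma-voom (adjusted p = 0.121), with the replicate number as a block (adjusted p = 0.066) and with the Y-linked covariate (adjusted p = 0.162). Krt10 was at 16.7, 13.2 and 18.5 CPM in the controls and at 6.79, 15 and 32 CPM in the mutants and was not called (0.15, SE 0.48, edgeR adjusted p = 0.819). Krt2, the late keratin of epidermis (1.17, SE 0.43), Krt24 (0.81, SE 0.65), Krt79 (-0.06, SE 0.57) and Krt12, the keratin of the cornea (2.1, SE 0.82), were not called either, with adjusted p from 0.0591 for Krt2 to 0.944 for Krt79. Krt2 was called higher without mutant replicate 1 (adjusted p = 0.032). Krt77 passed the filter on low counts through the mutants only. It had 9, 0 and 11 counts in the controls and 30, 32 and 35 in the mutants (3.19, SE 0.83, edgeR adjusted p = 0.0173). That call was lost without control replicate 3 (adjusted p = 0.0509), mutant replicate 2 (0.0527) or mutant replicate 3 (0.0541), and with the Y-linked covariate (0.321). Krt12 shares 42% of its windows with a transcript on the opposite strand, and its reads may not be separable from that gene.

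The bases before the start sites of 3 suprabasal keratins are shown because they are the gene with the largest fold change of the group (Krt13), the palate keratin (Krt76) and the member of the cornifying pair that was not called (Krt10). Sequences are from RefSeq on GRCm38.p6, minus strand, 250 bases up to the start, written 5′ to 3′. Capitals mark matches on either strand to TATAAA, to the AP-1 motif TGANTCA, to the GC box GGGCGG, to CACCC and to the Grainyhead motif AACNGGTT.
Krt13, chr11:100121567-100121816: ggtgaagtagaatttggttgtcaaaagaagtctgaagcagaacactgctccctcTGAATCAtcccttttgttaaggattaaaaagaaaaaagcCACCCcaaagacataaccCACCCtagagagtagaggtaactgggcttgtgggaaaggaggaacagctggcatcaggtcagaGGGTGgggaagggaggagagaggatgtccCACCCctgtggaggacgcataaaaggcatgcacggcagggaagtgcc
Krt76, chr15:101892921-101893170: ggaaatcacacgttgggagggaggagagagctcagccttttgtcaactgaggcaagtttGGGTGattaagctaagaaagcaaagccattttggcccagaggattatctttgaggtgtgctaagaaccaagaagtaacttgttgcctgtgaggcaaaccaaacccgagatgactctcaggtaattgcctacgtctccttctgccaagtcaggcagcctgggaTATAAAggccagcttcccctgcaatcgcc
Krt10, chr11:99389365-99389614: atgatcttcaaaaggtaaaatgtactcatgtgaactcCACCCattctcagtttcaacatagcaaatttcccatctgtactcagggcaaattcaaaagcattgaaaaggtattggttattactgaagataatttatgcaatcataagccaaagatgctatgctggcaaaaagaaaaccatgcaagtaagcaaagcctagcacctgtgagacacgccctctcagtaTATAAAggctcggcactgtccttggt
Krt76 and Krt10 hold TATAAA 29 and 26 bases before the start, and Krt13 holds no TATAAA but 4 CACCC matches and an AP-1 match 196 bases before it. RefSeq windows were found for 35 of the 52 keratins, 36 windows in all. Those without a window included Krt1, Krt4, Krt6a, Krt6b, Krt15, Krt16, Krt17, Krt19 and Krt80. The shares of windows below therefore leave out several abundant or strongly changed members. TATAAA was in 17 of them (47.2%), against 12.3% of 32544 windows of the same length over all genes. CACCC was in 77.8% against 52.1%, the GC box in 5.56% against 33%, AP-1 in 5.56% against 6.73%, and the Grainyhead motif in none against 1.79%. The 2 windows with AP-1 matches were those of the 2 RefSeq starts of Krt13. These are matches of letters only, and neighbouring family members share ancestry.

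**Figure D2:**
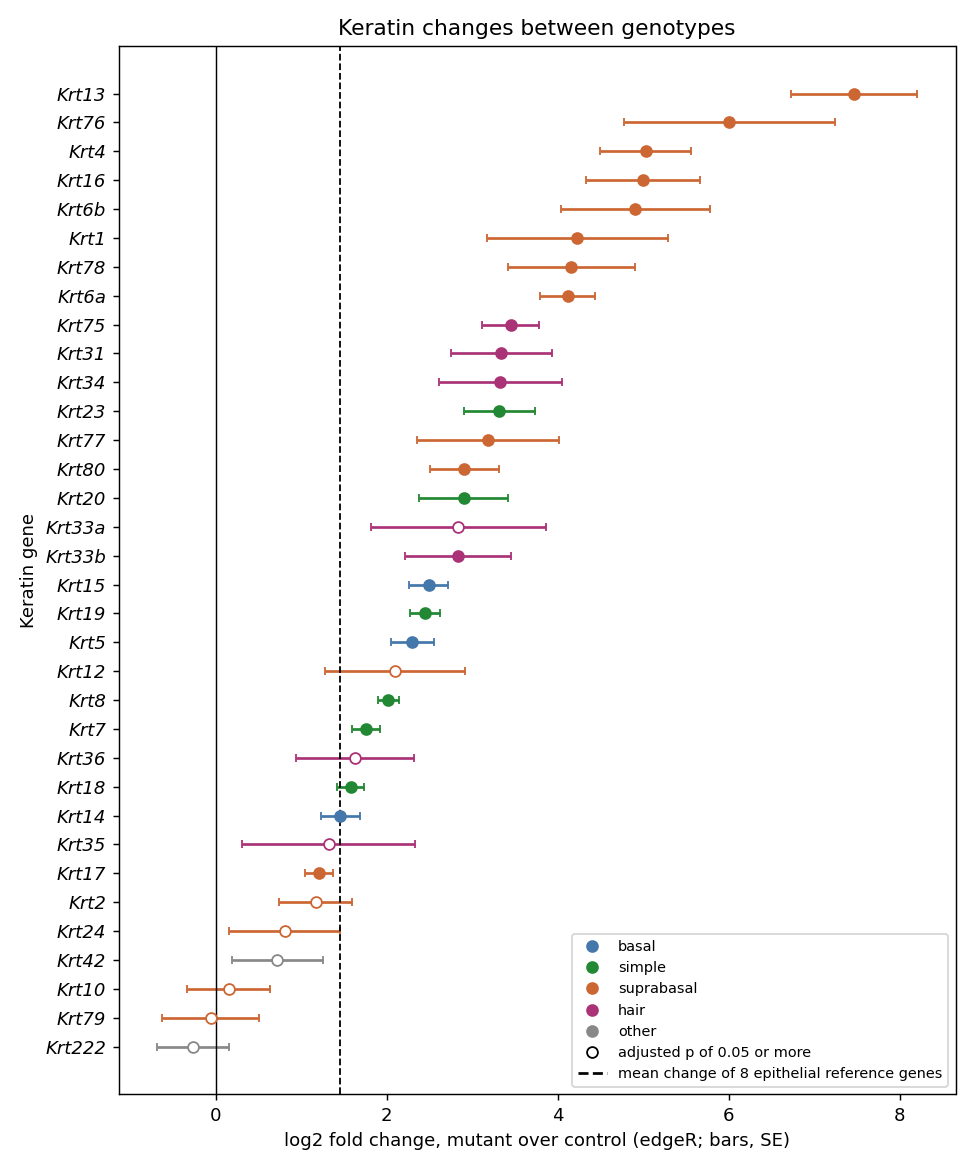
log2 fold change of mutant over control with its SE for 34 tested keratins, coloured by group, with open symbols for adjusted p of 0.05 or more and a dashed line at 1.45, the mean change of 8 other epithelial genes. Krt73 and Krt39 are left out because all libraries of 1 genotype had 0 counts. Krt13 stands farthest to the right at 7.47, and Krt14, Krt17 and Krt18 lie near the dashed line.

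Hair keratins were at low levels, and they included the only keratin that fell. Of 24 members 9 were tested, 5 rose, 1 fell and 3 were not called, where 24.1% of all tested genes were called higher and 21.7% lower. Krt75 alone passed the filter on low counts in both groups, 6 passed through the mutants only and Krt73 through the controls only, so for these the direction was largely set by the filter. Krt75, a keratin of the hair companion layer, nail bed and tongue papillae, was the most abundant, at 3.09, 2.6 and 4.7 CPM in the controls and 23.7, 47.5 and 43.1 CPM in the mutants (log2 fold change 3.45, SE 0.33, edgeR adjusted p = 0.000428). The hair shaft keratins of the Krt31 to Krt36 block were near the limit of detection. Krt31 had 6, 20 and 51 counts in the controls and 178, 99 and 97 in the mutants (3.34, SE 0.59, edgeR adjusted p = 0.00359). Krt34 (3.33, SE 0.72) and Krt33b (2.83, SE 0.62) were called as well, both at an adjusted p of 0.00853 in edgeR. With the Y-linked covariate these 2 calls were lost (0.0697 and 0.0963). Krt33a (2.84, SE 1.02), Krt36 (1.63, SE 0.69) and Krt35 (1.32, SE 1.01) were not called. Krt36 was called without control replicate 3 (adjusted p = 0.0409) and with the replicate block (adjusted p = 0.0367), and Krt33a without control replicate 2 (adjusted p = 0.0159), by limma-voom (0.0223) and with the Y-linked covariate (0.0112). Transcripts of Krt31, Krt33a, Krt33b and Krt34 share 17.8% to 33.1% of their 50-base windows with other genes, chiefly one another. Krt39 had 0 counts in every control and 30, 8 and 12 in the mutants, at least 32.2-fold higher against a floor of 3 counts over the controls (edgeR adjusted p = 0.00649, and 0.0519 with the Y-linked covariate).

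Krt73, a type II keratin of the hair inner root sheath, went the other way. It had 68, 71 and 108 counts in control replicates 1, 2 and 3, or 0.841, 0.703 and 0.815 CPM, and 0 counts in every mutant. This was at least 42.7-fold lower against a floor of 3 counts over the mutants (edgeR adjusted p = 0.00107), and the call held in each of the 16 alternative settings in which Krt73 could be tested. Krt73 lies on chromosome 15 from 101793308 to 101802346, minus strand, between Krt72 and Krt2, and overlaps no other gene in GENCODE M21. Of its neighbours, Krt72 had 2 counts in the summed controls and 2 in the summed mutants, and Krt2 was at 0.285 CPM on average in the controls and 0.641 CPM in the mutants, higher without overlap but not called. The RefSeq window before its start is shown because it is the only keratin that fell, with TATAAA in capitals.
Krt73, chr15:101802361-101802610: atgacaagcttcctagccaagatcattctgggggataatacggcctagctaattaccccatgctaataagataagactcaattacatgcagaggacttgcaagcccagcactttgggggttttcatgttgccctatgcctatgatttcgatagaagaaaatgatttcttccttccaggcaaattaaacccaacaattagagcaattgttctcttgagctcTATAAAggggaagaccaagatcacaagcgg
TATAAA lies 30 bases before the start, and no other searched motif matched.

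The 16 untested keratins were counted in few reads, and no direction was read from them. Krt9, a keratin of palm and sole skin, had 28 counts summed over each genotype. At the unequal depth this was 0.0879 CPM on average in the controls and 0.171 CPM in the mutants. Of the 15 untested hair keratins, Krt81 had 0 counts in all libraries, and Krt40, Krt86, Krt25, Krt72 and Krt26 had 2 to 8 in all. Krt82, a hair cuticle keratin, had 8, 12 and 22 counts in the controls and 0, 2 and 0 in the mutants. Krt28, of the inner root sheath, had 12, 15 and 22 in the controls and 10, 0 and 2 in the mutants. Krt84 had 0, 2 and 8 counts in the controls and 28, 0 and 44 in the mutants. Krt32 had 0, 0 and 8 in the controls and 6, 34 and 22 in the mutants. Krt27 (32 and 22), Krt83 (34 and 33), Krt85 (17 and 20), Krt74 (15 and 21, a pseudogene in GENCODE M21) and Krt71 (5 and 6) had sums of like size in controls and mutants, at unequal depth. Of the members in no group, Krt42 (0.72, SE 0.53) and Krt222 (-0.27, SE 0.42) were tested and not called.

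The order of keratins by level differed between the genotypes. Levels per length (CPM per kb of transcript) put Krt17 first in the controls at 224, then Krt14 at 196, Krt5 at 158 and Krt15 at 143. In the mutants Krt15 came first at 804, then Krt5 at 783, Krt13 at 579, Krt14 at 539 and Krt17 at 517. Krt13 was in place 12 in the controls and in place 3 in the mutants. Its share of the pool was 0.369% ± 0.141 (SD, n = 3) in the controls and 12.4% ± 6.57 in the mutants, lowest in mutant replicate 1 (5.01%) and highest in replicate 3 (17.6%). The share of Krt6a went from 2.93% ± 0.904 to 9.94% ± 1.1, that of Krt17 from 25.2% ± 0.622 to 12% ± 2.03 and that of Krt14 from 22% ± 1.26 to 12.7% ± 4.96. Neither genotype overlapped the other for these 4 genes, whereas Krt5 held 17.5% ± 1.91 and 17.9% ± 1.3, with overlap. As a whole the suprabasal share was 28.8%, 32.2% and 30.9% in the controls and 30.1%, 41.7% and 46.3% in the mutants, with mutant replicate 1 inside the range of the controls (exact p = 0.3). Krt17 is counted in this group. It held 24.8%, 25.9% and 25% of the pool in the controls and 14.2%, 11.7% and 10.1% in the mutants. Its smaller share in the mutants offset the larger shares of Krt13 and Krt6a.

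**Figure D3:**
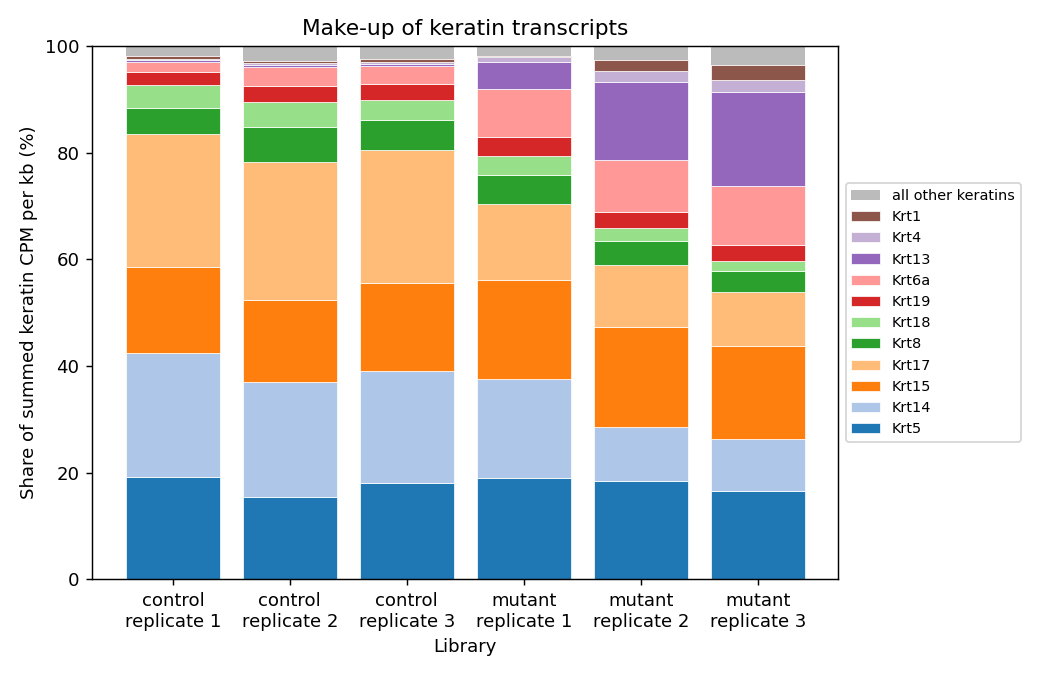
Share of each keratin in the summed keratin CPM per kb of each library, in percent, for 11 keratins and all others together. Krt17 and Krt14 take smaller shares in the mutants, and Krt13 and Krt6a larger ones, with Krt13 at 5.01% in mutant replicate 1 and 17.6% in mutant replicate 3.

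Type II keratins were higher against type I in the mutants. Per length, the ratio of type II to type I keratins was 0.381, 0.379 and 0.409 in the controls and 0.548, 0.622 and 0.62 in the mutants, with no overlap (exact p = 0.1). Within 6 known or likely pairs, the log2 ratio of type II to type I CPM was compared between genotypes, and in each pair the groups did not overlap (exact p = 0.1, adjusted over the 6 pairs 0.1). The Krt5:Krt14 log2 ratio went from 0.04 ± 0.14 to 0.93 ± 0.45 (SD, n = 3 each, also below) and Krt8:Krt18 from 0.86 ± 0.21 to 1.32 ± 0.26. Krt4:Krt13 went the other way, from 0.06 ± 0.2 to -2.3 ± 0.27, and Krt6a:Krt16 from 5.34 ± 1.07 to 4.22 ± 0.29. The gap between groups was narrow for Krt8:Krt18 (highest control 1.01, lowest mutant 1.02). It was also narrow for Krt6a:Krt16 (lowest control 4.53, highest mutant 4.47). Krt1:Krt10 went from -0.69 ± 0.51 to 2.78 ± 1.64, with 0.9 in mutant replicate 1 and 3.91 and 3.52 in replicates 2 and 3. Krt76:Krt10 went from -8.4 ± 0.64 to -3.53 ± 1.12. With so few Krt76 counts in the controls this depends on the prior count, and the difference of 4.86 became 5.83 with a prior count of 0.5.

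**Figure D4:**
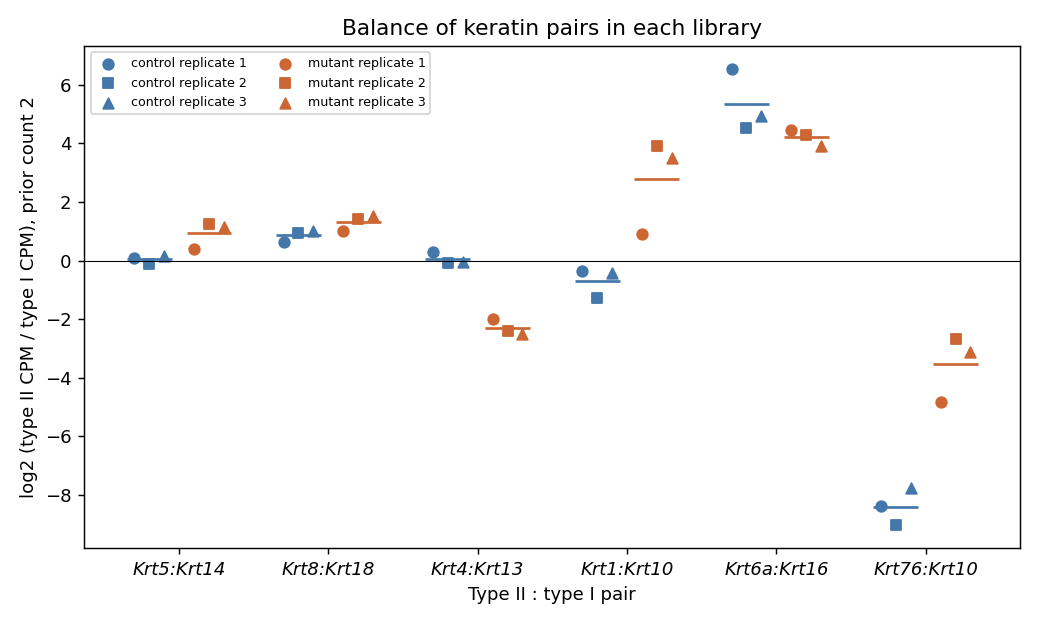
log2 ratio of the type II to the type I partner for 6 keratin pairs in each library (blue, control; orange, mutant; lines, group means; prior count of 2). The Krt4:Krt13 ratio lies near 0 in all controls and between -2 and -2.52 in the mutants, and Krt1:Krt10 spreads from 0.9 to 3.91 among the mutants.

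Other epithelial genes rose too, so keratin levels were also set against them. A reference of 8 non-keratin epithelial genes, among them the adhesion genes Cdh1 and Epcam and the splicing factors Esrp1 and Esrp2, had a mean log2 level of 5.45, 4.73 and 5.28 in the controls and 6.76, 6.44 and 6.61 in the mutants, a difference of 1.45. All 8 were called higher by edgeR (24.1% of all tested genes), with log2 fold changes from 0.84 to 1.96. Relative to this reference 19 of the 36 tested keratins were higher in every mutant than in any control (5.36% of all tested genes). Another 3 were lower (79.1% of all tested genes) and 14 overlapped, and the median difference was 1.12. Of the 19, Krt31, Krt33b, Krt39, Krt76, Krt77 and Krt78 passed the filter on low counts through the mutants only. Of the 3, Krt73 passed through the controls only. For these genes the direction was largely set by the filter. Krt13 was higher by 5.83 relative to the reference, Krt16 by 3.8, Krt4 by 3.46 and Krt6a by 2.68 on the log2 scale (exact p = 0.1 for each). Among abundant keratins Krt5 (0.91), Krt15 (1.07), Krt19 (1.03) and Krt8 (0.58) were also higher in the mutants relative to it, without overlap. Krt14 (0.02), Krt18 (0.13), Krt7 (0.32) and Krt17 (-0.22) had overlapping groups. Relative to the reference Krt10 was lower in the mutants than in the controls by 1.56 on the log2 scale. It was at -1.38, -1 and -1.07 in the controls and -3.99, -2.53 and -1.61 in the mutants. Krt73 and Krt222 were the other 2 that were lower.

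Mutant replicate 1, in which 99.7% of low counts were even against at most 73% elsewhere, held the lowest mutant value of most suprabasal keratins. It was the lowest mutant for 13 of the 16 tested suprabasal keratins, for 2 of 3 basal and for 1 of 6 simple keratins. Against the mean of mutant replicates 2 and 3 its log2 level differed by -4.5 for Krt1, -3.6 for Krt76, -2.92 for Krt6b, -2.07 for Krt13 and -1.6 for Krt4. For Krt8 the difference was -0.04, for Krt17 -0.01 and for Krt14 0.51. The cornified epithelium markers, 12 of 13 found in the files, had a summed level of 10.8 to 14.9 CPM in the controls and of 48, 187 and 365 CPM in mutant replicates 1, 2 and 3. Of 10 tested 9 were called higher, led by Krtdap, Sbsn, Cdsn and Sprr1a, and none lower, against 24.1% and 21.7% of all tested genes. Cnfn and Sprr1b, 2 of the 9, lay under the filter's cutoff of 0.148 CPM in every control. Cdsn and Rptn lay under it in 1 control and above it in every mutant. For these genes the direction was largely set by the filter. Sprr1a, of the cornified envelope, had 9.56, 61.9 and 119 CPM in the mutants and lost its call under limma-voom (adjusted p = 0.0566), while Ivl (involucrin) was at or under 0.0745 CPM in every library and Lor (loricrin), at 3.38 to 8.36 CPM, was not called. With replicate 1 of both genotypes left out, 27 of 39 tested keratins were called higher and 1 lower. All 26 calls of the full set were kept. The part of this library difference in the results was not tested.

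Markers of some other cell types were higher in the mutants as well, and others were not. The calls in each list below stand against 24.1% of all tested genes called higher and 21.7% called lower. All 9 multiciliated cell genes found in the files were called higher, with a summed level of 46.2 to 188 CPM in the controls and 762 to 834 CPM in the mutants, among them Hydin (6.5, SE 0.59), Sntn (8.31, SE 0.88), Dnaic1 (3.9, SE 0.29) and Ccdc39 (3.12, SE 0.3). Of 12 lung and airway secretory genes 7 were tested and all were higher (21.3 to 33.3 against 106 to 113 CPM), with Foxa1, which other epithelia also express, making up most of the sum and Scgb1a1 at 0 counts in every library. The lung genes Sftpc (9.18, SE 0.73), Sftpd (3.35, SE 0.53) and Nkx2-1 (5.19, SE 0.89) were among those called, Nkx2-1 not with the Y-linked covariate (adjusted p = 0.0759). All 4 tested mesothelial genes were higher (8 to 12.9 against 59.3 to 69.1 CPM), namely Msln (4.08, SE 0.3), Upk1b (2.84, SE 0.27), Wt1 (2.82, SE 0.71) and Gpm6a (1.23, SE 0.32). The call for Wt1 was lost with the replicate block (adjusted p = 0.0534), with the Y-linked covariate (0.24) and without control replicate 3 (0.0527) or mutant replicate 2 (0.0604). That for Gpm6a was lost with the Y-linked covariate (0.072) and without mutant replicate 2 (0.0658) or mutant replicate 3 (0.0643). Of 9 tested olfactory genes 2 were higher, Six3 and Stoml3, and 1 lower, Emx2 (59.1 to 66.1 against 91 to 94.1 CPM), counts near the 24.1% and 21.7% of all tested genes. The call for Emx2 was lost without mutant replicate 2 (adjusted p = 0.0661). Tooth germ genes had 3 lower, Fgf3, Fgf4 and Odam, and none higher of 7 tested (111 to 152 against 96.2 to 128 CPM), and Fgf4 was at 0 counts in all mutants. Of 8 tested hair follicle genes 3 were higher and none lower (75.4 to 90.8 against 69.4 to 89.3 CPM): Foxn1, Tchh and Crnn. Of these Crnn, cornulin, is also a gene of oral lining and was not called with the Y-linked covariate (adjusted p = 0.0634). Whether 3 of 7 tooth germ and 3 of 8 hair follicle genes differ from the shares over all tested genes was not tested. Hoxc13, a direct regulator of hair keratins, was at 0.198, 0.159 and 0.249 CPM in the controls and 0.799, 0.111 and 0.186 CPM in the mutants and was not called. Sntn, Sftpc, Nkx2-1 and Crnn lay under the filter's cutoff of 0.148 CPM in every control. Sftpd, Wt1, Stoml3 and the lung list genes Muc5b and Foxa2 lay under it in at least 1 control and above it in every mutant. Emx2, Fgf3, Fgf4 and Odam lay under it in every mutant. For these genes the direction was largely set by the filter on low counts. The part of these cell types in the keratin changes was not tested.

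The genes that tie keratin filaments to junctions rose with the keratins. Of 21 tested genes of desmosomes, hemidesmosomes and plakin linkers, 18 were called higher and none lower, against 24.1% and 21.7% of all tested genes. Their median log2 fold change was 2.21 (0 over all tested genes). Dsg3, a desmosomal cadherin of stratified epithelium, rose from 14, 7.73 and 17.2 to 191, 222 and 263 CPM (4.12, SE 0.3, edgeR adjusted p = 0.000234). Pkp1, which anchors keratin at the desmosome, rose from 67.7, 51.7 and 87.1 to 403, 448 and 542 CPM (2.75, SE 0.21), Dsc2 by 2.85 (SE 0.23) and Jup, plakoglobin, by 1.85 (SE 0.14). Dst (0.3, SE 0.13), Dsc3 (0.52, SE 0.23) and Tchp (0.26, SE 0.16) were not called. Of 23 transcription and splicing factors of epithelium, 16 were called higher and none lower (median 1.45), against the same 24.1% and 21.7%. Elf3 (2.6, SE 0.24), Ehf (1.78, SE 0.18), Ovol1 (2.84, SE 0.3) and Klf5 (2.49, SE 0.27), regulators of epithelial differentiation, had the smallest p. Trp63, the p63 gene of basal cells, rose by 0.91 (SE 0.26), and Klf4 was not called (-0.03, SE 0.28).

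Intermediate filament genes outside the keratins were called about as often as genes in general. Of 14 tested, 2 were called higher (1 without mutant replicate 2 or mutant replicate 3), 4 lower and 8 were not called, against 24.1% and 21.7% of all tested genes, with a median log2 fold change of -0.22. Vim, vimentin of mesenchymal cells, was at 675, 1110 and 1070 CPM in the controls and 855, 1120 and 1130 CPM in the mutants and was not called (0.12, SE 0.2). Nes, nestin of progenitor cells, fell by 0.99 on the log2 scale (SE 0.12), Lmnb1 by 0.77 (SE 0.12) and Lmnb2 by 0.61 (SE 0.09), both B-type nuclear lamins. Ina, a neuronal filament gene, fell by 4.75 (SE 0.85) from 7.25, 4.83 and 0.928 to 0.145, 0.259 and 0.0745 CPM. Its adjusted p was 0.0757 in limma-voom. Mutant replicate 3 lay under the filter's cutoff of 0.148 CPM. Ina thus passed the filter through the controls only, and its direction was largely set by it. The 2 that were higher were Gfap (1.86, SE 0.34) and Lmna, the A-type lamin gene (0.75, SE 0.21), which are named here after their values were seen.

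In both clusters neighbours differed in size of change. In the type I cluster on chromosome 11, Krt13 (7.47) lies beside Krt15 (2.49) and Krt19 (2.45), and Krt16 (5) lies between Krt14 (1.46) and Krt17 (1.21). In the type II cluster on chromosome 15, Krt76 (6.01) and Krt4 (5.03) are neighbours, and Krt79 (-0.06), which was not called, lies between Krt4 and Krt78 (4.16). Krt6b, Krt6a and Krt5 follow one another among the keratin genes, with log2 fold changes of 4.91, 4.12 and 2.3.

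**Figure D5:**
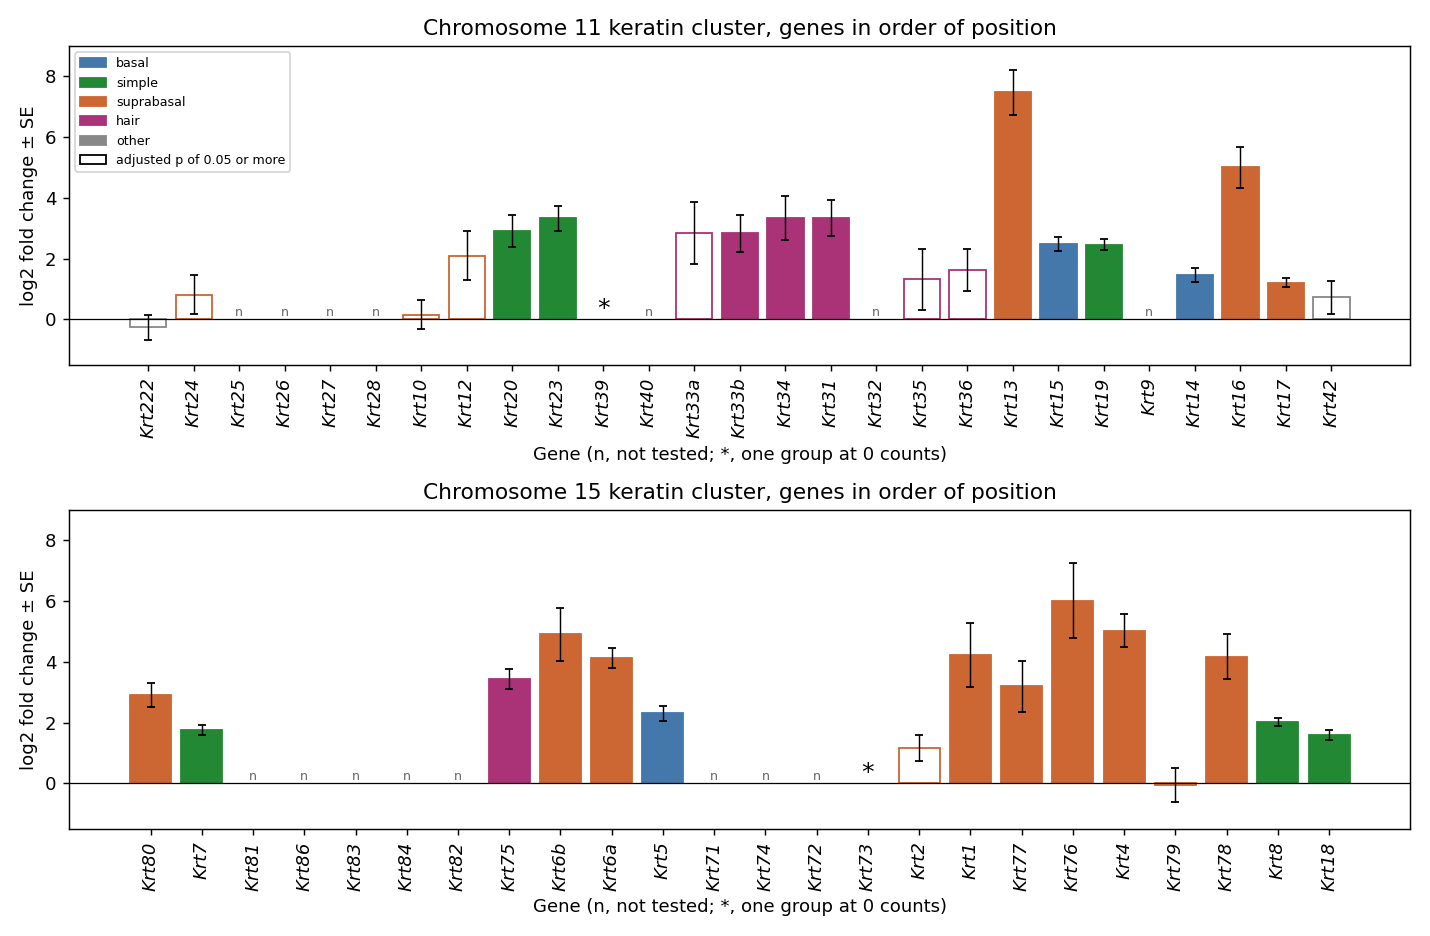
log2 fold change with SE of the keratins in the order of their position on chromosomes 11 and 15 (bars, coloured by group; open bars, adjusted p of 0.05 or more; n, not tested; asterisk, 1 genotype at 0 counts). The tallest bar is Krt13 at 7.47 on chromosome 11, and on chromosome 15 Krt76 (6.01) and Krt4 (5.03) stand side by side next to Krt79, which is near 0.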

How the data were processed

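Palate RNA of 3 control and 3 mutant libraries was measured. The authors deposited whole-number counts per gene symbol, 1 file per library. Per the submitters' processing notes HISAT2 and StringTie and the builds mm9 and mm10 were used, with no versions or roles, and 4 of the 6 file headers also name HISAT2. Counter, strand setting and annotation: not given in the sources used here. edgeR 4.0.16 (R 4.3.3) was fitted to these counts with filterByExpr (minimum count 10), TMM scaling and the quasi-likelihood test, with genotype as the only term, and p-values were adjusted by Benjamini-Hochberg over 16604 genes, with a threshold of 0.05. SE is |log2 fold change| over the root of F. Log2 levels and ratios used a prior count of 2. The fit was tested on simulated data. Alternatives were DESeq2 1.42.0, limma-voom (limma 3.58.1), other scalings and filters, a replicate block, a Y-linked covariate, halved counts and libraries left out.

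Total counts were 52668242 to 134813429. Among counts from 5 to 50, 63.6% to 73% were even in 5 libraries and 99.7% in mutant replicate 1, so counts may hold both mates of a pair, and floors of 3 counts cover counting error only. No libraries agreed within sampling noise (chi-square per degree of freedom at least 16.1). GENCODE M21 (GRCm38) held 51 of the 52 keratins, all but Krt85, and gave positions and principal transcript lengths; the authors' gene models may differ.

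Members and lists were chosen with earlier results of these data known. All tested keratins were named, and untested ones with 10 or more counts. From each other list the called genes with the smallest p, at most 4, were named, and any further gene after its values were seen. Lists were filament anchors, epithelial factors, other intermediate filament genes, an epithelial reference, and markers of multiciliated, lung and airway, cornified, olfactory, tooth germ, hair follicle and mesothelial cells.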

Additional observations from a re-analysis of the deposited data

How the results depend on the processing

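Of the 26 called keratins, 18 kept their call and direction under every alternative in which they could be tested, and 8 lost the call under at least 1: Krt1, Krt77, Krt39, Krt33b, Krt34, Krt6b, Krt76 and Krt78. With the Y-linked covariate 18 keratins were higher and 1 lower. It ended all 8 of these calls, and Krt33a was newly called (adjusted p = 0.0112). Without it the counts were 19 to 27 higher. With at least 1 CPM in 3 libraries 0 keratins were lower, because Krt73 was no longer among the 21 tested. Under that filter 19 of the 26 calls could be tested, and with halved counts 23. All of those were kept. Leaving out each library in turn gave 24 to 27 keratins higher and 1 lower. Over those fits the summed log2 difference was 2.16 to 2.52, the median against the epithelial reference 0.84 to 1.18 (1.41 with a prior count of 0.5), and the log2 ratio differences 0.73 to 1.15 for Krt5:Krt14, 0.33 to 0.6 for Krt8:Krt18, -2.52 to -2.25 for Krt4:Krt13, 2.9 to 4.4 for Krt1:Krt10, -1.52 to -0.51 for Krt6a:Krt16 and 4.49 to 5.55 for Krt76:Krt10. Anchor genes were higher in 18 to 20 cases and lower in 0, with 15 higher under the Y-linked covariate and 17 with the 1 CPM filter, epithelial factors higher in 14 to 18 and lower in 0, and other filament genes higher in 1 to 2 and lower in 4 to 5, with 1 higher without mutant replicate 2 or mutant replicate 3. With the Y-linked covariate 1 epithelial factor was lower. The cause was not tested.

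Signs turned only for keratins that were not called. Krt10 was at -0.09 with the replicate block, -0.04 with the Y-linked covariate, -0.13 by limma-voom and -0.57 without mutant replicate 3. Krt79 was at 0.02 with library size only, 1.18 with the Y-linked covariate, and 0.22, 0.15 and 0.25 without control replicate 2, control replicate 3 and mutant replicate 2. Krt222 was at 0.07 with the Y-linked covariate and 0 without mutant replicate 2, and Krt35 at -0.22 with the Y-linked covariate. Leaving out each library gave -0.57 to 0.54 for Krt10, -0.48 to 0.25 for Krt79 and -0.52 to 0 for Krt222.

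Whether replicate numbers pair the libraries was not settled by these values. Deviations of same-numbered libraries correlated only weakly, at 0.081, 0.082 and 0.02 across genes. With the replicate block 25 keratins were higher and 1 lower, and each library correlated best with its own number except control replicate 3.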

Other observations

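Keratin-associated proteins, which cross-link keratin in the hair shaft, were looked at beside the hair keratins. Of 52 Krtap genes in the files, 39 had 0 counts in every library. The other 13 together had 38 counts in the controls, which were sequenced deeper, and 165 in the mutants. Only 1 of them passed the filter, and the largest sum for any Krtap gene over all 6 libraries was 71 counts.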
